A study of Mus musculus with 4 samples.

Results

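Trypsinogens and chymotrypsinogens are the inactive forms of the main serine proteases of pancreatic juice. The 7 genes described here were chosen by symbol: the trypsinogens Prss2, Try4, Try5 and Try10 and the chymotrypsinogens Ctrb1, Ctrc and Ctrl, 7 of the 31053 genes in the count tables. Acinar cells make these enzymes, store them in zymogen granules and release them into the duct on secretory signals such as cholecystokinin. In the gut, enteropeptidase cuts trypsinogen to trypsin, and trypsin then activates the other zymogens. In the pancreas itself, early activation of trypsinogen is the event from which acute pancreatitis is classically explained, and Spink1, chymotrypsin C and control of lysosomal cathepsin B act on it. The trypsinogen genes of the mouse are related copies in 1 gene cluster, some of them near-identical, so reads cannot always be told apart between them.

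The mice were wild-type C57BL/6, without any transgene or deletion, and the groups differed in treatment and recovery time. The agent was caerulein, a peptide that acts like cholecystokinin and at high doses brings on acute pancreatitis, or saline as its control. Recovery lasted 2 days, in the groups S2D with saline and C2D with caerulein, or 6 weeks, in the groups S6W with saline and C6W with caerulein. Each group was 1 library of DAPI-negative sorted cells run on the 10x Genomics 3' assay, so variation between animals cannot be estimated, and neither the age of the mice nor their number per library is given in the sources used here. All intervals are exact at 95%, or normal approximations for differences of ratios, and cover counting error only.

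The libraries held 2623 to 5433 barcodes and 29145886 to 71547194 UMIs (unique molecular identifiers, each standing for 1 captured RNA molecule), and 2017 to 4584 cells per library were analysed. Barcodes shared by any pair of libraries numbered 3 to 22, at most 0.839% of a library. Acinar-like cells, named by marker genes, numbered 428 in S2D and 771 in C2D, against 448 in S6W and 363 in C6W. They lay in different clusters: cluster 7 held 410 of those of S2D, 439 of S6W and 347 of C6W, while clusters 33 and 18 held 474 and 294 of those of C2D. The acinar-like cells of C2D had a median of 1195 genes and 0.029% mitochondrial UMIs, against 447 to 536 genes and 0.165 to 0.279% in the other libraries. The 14 macrophage markers summed to 918 CPM (counts scaled to the same total of these cells' UMIs) in C2D and 26.4 to 54.1 elsewhere, and the 14 ductal markers to 1079 and 94.6 to 161. The 20 acinar markers, by which these cells were named, summed to 120039 CPM in C2D and 446627 to 486099 elsewhere. How far these differences bear on the values below was not tested.

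Because some trypsinogens differ by few bases, the end of the coding sequence is shown for the genes on which the results turn. It lies 32 to 98 bases before the transcript end, where the 3' assay reads, but 1367 bases before it in 2210010C04Rik. The sequences are the last 60 coding bases in GENCODE vM21, with capitals where a base differs from Prss2.
Prss2: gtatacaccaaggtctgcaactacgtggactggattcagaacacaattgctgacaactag
Try4: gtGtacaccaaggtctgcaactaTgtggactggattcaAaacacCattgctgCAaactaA
Try5: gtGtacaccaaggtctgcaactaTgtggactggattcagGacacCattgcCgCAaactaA
Try10: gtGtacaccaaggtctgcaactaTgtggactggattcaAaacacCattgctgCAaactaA
2210010C04Rik: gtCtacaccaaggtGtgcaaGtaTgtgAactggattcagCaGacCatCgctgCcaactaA
Gm2663: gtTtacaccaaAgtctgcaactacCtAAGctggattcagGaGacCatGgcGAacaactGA
Try4 and Try10 read the same over these bases, and Try5 differed from Prss2 at 8 of them. Over the whole coding sequence Try4 and Try5 were 97.4% identical, Prss2 and Try4 91.6% and Prss2 and Try5 90.3%. The chymotrypsinogens were further apart, at 63.8% for Ctrb1 and Ctrl and 59.3% for Ctrb1 and Ctrc. Of the 90-base windows in the last 400 transcript bases, none of Prss2, Ctrb1, Ctrc, Ctrl and 2210010C04Rik occurred in a transcript of another gene. The same held for all but 4.82% of the windows of Try4 and of Try5, which each shared them with the other, and for all but 15.1% of those of Try10. By contrast, 71.1% of the windows of Gm2663 and 69.5% of those of 1810009J06Rik were shared between these 2 genes, which were 99.5% identical, and Prss1, Prss3, Gm5771 and Gm10334 shared 29.9 to 69.5% among themselves. Splits within these 2 sets are therefore uncertain. The windows of 2210010C04Rik all lie after its coding sequence, so they do not bear on its printed bases.

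In the mm10 build, with GENCODE vM21 coordinates, Prss2 lies at chr6:41521787-41525079, Try4 at chr6:41302269-41305532, Try5 at chr6:41311233-41316841 and Try10 at chr6:41354105-41357914, and each has 5 exons. Ctrb1 (chr8:111686519-111691010) and Ctrl (chr8:105932003-105933862) have 7 exons each, and Ctrc (chr4:141814962-141846359) has 9. RefSeq promoters (GRCm38.p6, 250 bases before to 50 after the start) matched 4 of the 7 members, which are shown because these members varied together across cells to different degrees, as described further on. Capitals mark CACCTG and CAGCTG, E-boxes of the kind bound by the acinar factor PTF1A, and TTTCCC, the other part of the PTF1 element, all searched on both strands, and TATAAA, the TATA box, searched on the gene's strand.
Prss2, chr6:41521526-41521825, + strand: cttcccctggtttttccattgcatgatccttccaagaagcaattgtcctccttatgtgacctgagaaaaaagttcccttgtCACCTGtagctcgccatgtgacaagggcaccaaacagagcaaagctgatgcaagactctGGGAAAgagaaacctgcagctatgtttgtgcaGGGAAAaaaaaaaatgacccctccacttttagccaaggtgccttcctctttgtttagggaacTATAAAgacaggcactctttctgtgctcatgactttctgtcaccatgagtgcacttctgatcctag
Try4, chr6:41302022-41302321, + strand: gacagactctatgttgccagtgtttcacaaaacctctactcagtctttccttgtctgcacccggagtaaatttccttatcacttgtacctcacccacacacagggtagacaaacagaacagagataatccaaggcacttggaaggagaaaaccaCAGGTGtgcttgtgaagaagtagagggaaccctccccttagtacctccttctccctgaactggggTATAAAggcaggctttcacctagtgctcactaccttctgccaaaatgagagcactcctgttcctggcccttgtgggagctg
Ctrb1, chr8:111690961-111691260, - strand: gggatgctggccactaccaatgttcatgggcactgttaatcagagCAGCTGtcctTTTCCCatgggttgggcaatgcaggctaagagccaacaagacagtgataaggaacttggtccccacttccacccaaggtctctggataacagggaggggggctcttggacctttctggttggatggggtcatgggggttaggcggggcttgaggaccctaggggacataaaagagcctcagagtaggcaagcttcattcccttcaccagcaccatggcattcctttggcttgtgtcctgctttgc
Ctrl, chr8:105933813-105934112, - strand: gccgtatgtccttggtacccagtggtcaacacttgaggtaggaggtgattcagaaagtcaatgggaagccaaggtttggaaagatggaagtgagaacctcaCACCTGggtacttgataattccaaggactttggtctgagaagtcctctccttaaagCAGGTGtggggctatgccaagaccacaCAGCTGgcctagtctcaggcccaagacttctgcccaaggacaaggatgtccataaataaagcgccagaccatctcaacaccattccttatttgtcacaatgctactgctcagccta
CACCTG was in 3 of these 4 promoters, against 20.2% of all 32851 promoters of that length, CAGCTG in 2 (16.3%), TTTCCC in 2 (25.2%) and TATAAA in 2 (8.32%). TCAAGGTCA, a site for NR5A2, was in 0 of 4 (0.423%). Try4 and Ctrl shared CACCTG only, which Prss2 also held. Such matches describe the letters and not binding.

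In saline pancreas the members made up about the same part of acinar RNA at both times, 32.2% of acinar-like UMIs in S2D and 31.0% in S6W. The order of levels, in mean UMIs per acinar-like cell of S2D, was Ctrb1 (1732), Prss2 (911), Try4 (660), Ctrl (460), Try5 (358), Try10 (10.6) and Ctrc (3.77), and the 3' assay tags each molecule once, so these levels do not scale with transcript length. No counting intervals of neighbours in this order overlapped, and the order was the same in S6W. Means lay above medians for every member in S2D, and the cell with the most UMIs of a member carried 3.29 to 5.47% of them. Between the saline libraries no member differed 2-fold under TMM (0 of 7, beside 1.54% of 1557 genes lower and 0.835% higher), with a median log2 of 0.07.

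At 2 days after caerulein the members still made up 27.3% of acinar UMIs, although the 34 digestive enzyme genes together made up 41.0% in C2D and 80.7% in S2D, so that the members' part of digestive UMIs was 66.6% in C2D and 39.9% in S2D. How large a change this is for a single gene depends on the scale. TMM, which sets the totals so that most genes are near no difference, gave the C2D library a factor of 3.08 and S2D one of 0.641, and put the median of all genes at 0.29 on the log2 scale. Plain CPM, which divides by all acinar UMIs, put that median at 2.56, and UMIs per cell at 2.58. Under TMM all 7 members were at least 2-fold lower, beside 10.8% of 5162 genes tested, and 0 were higher, beside 23.2%. Try5 was the exception under 2 other choices, at -0.49 with totals without digestive genes and -0.65 with doublets kept, which left 6 of 7. The share of all genes was not computed for these 2 choices. With doublets kept the clusters were rebuilt, and a cluster with a median of 14.6% mitochondrial UMIs was also named acinar-like. It held 69 cells of S2D and 1 of C2D. Under plain CPM 3 members were lower (Try4, Ctrl and Ctrc), beside 0.969% of genes, and 1 was higher (Try5), beside 92.4%. Each log2 ratio below is C2D over S2D under TMM, with plain CPM beside it, while ratios between 2 genes of a library need no scaling.

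**Figure D1:**
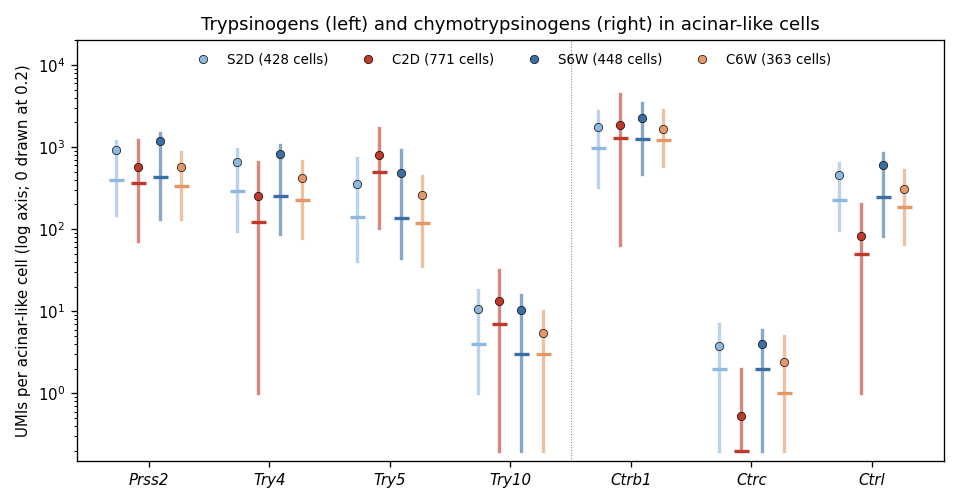
Level of each member in the acinar-like cells of the 4 libraries, in UMIs per cell on a log axis. Points are means, dashes medians and lines the 10th to 90th percentile of cells. Try5 was highest in C2D, with a mean of 791, while Ctrl and Ctrc were lowest there, at 82.5 and 0.527.

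Prss2, an anionic trypsinogen, averaged 911 UMIs per acinar-like cell with saline and 575 with caerulein at 2 days, and 1198 and 567 at 6 weeks. The caerulein libraries were below both saline libraries in mean, while medians were closer together (396.5, 364, 429 and 336). Its log2 ratio at 2 days was -2.95 (-2.96 to -2.95; -0.69 under plain CPM), and every C2D cell but 1 of 771 had a UMI of it.

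Try4 averaged 660 UMIs per cell in S2D and 253 in C2D, then 828 in S6W and 424 in C6W. C2D was lowest, and its cells differed most among themselves, with a 10th percentile of 1 UMI and a 90th of 657, against 96.2 and 955 in S2D. The log2 ratio was -3.67 (-3.68 to -3.66; -1.41 under plain CPM), and there were 0.441 UMIs of it per Prss2 UMI in C2D and 0.724 in S2D (log2 -0.72). With cells of at least 0.1% mitochondrial UMIs only, that difference was -1.34.

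Try5, the copy most like Try4 in sequence, went the other way relative to its family. Its mean was 358 UMIs per cell in S2D and 791 in C2D, against 490 in S6W and 263 in C6W, so C2D was the highest library in mean and in median (497, against 120 to 139.5). There were 0.393 UMIs of Try5 for each of Prss2 in S2D and 1.38 in C2D, a log2 difference of 1.81 (1.80 to 1.82), and relative to Try4 the difference was 5.76-fold. Clusters built without digestive genes gave a log2 difference of 1.81 for Try5 to Prss2. The direction of Try5 alone was lower under TMM, at -1.14 (-1.15 to -1.14), and higher under plain CPM, at 1.12.

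Try10, the rarest trypsinogen of the 4, averaged 10.6 UMIs per cell in S2D and 13.3 in C2D, then 10.3 in S6W and 5.43 in C6W. C2D was highest by a small margin, and TMM gave -1.96 where plain CPM gave 0.31. Relative to Prss2 it was 2.00-fold higher, with a log2 interval of 0.95 to 1.05.

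The mix of trypsinogens therefore differed in C2D from the other 3 libraries, as the stacked shares show. Try5 made up 48.4% of the UMIs of the 4 trypsinogens in C2D and 18.4, 19.4 and 20.9% in S2D, S6W and C6W. Try4 made up 15.5% in C2D and 32.8 to 34.0% elsewhere, and Prss2 35.2% and 45 to 47.4%. As library sums, values of the saline libraries and of C6W were thus close to each other and apart from C2D. Their few cells in cluster 18 differed from these sums, as described further on.

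**Figure D2:**
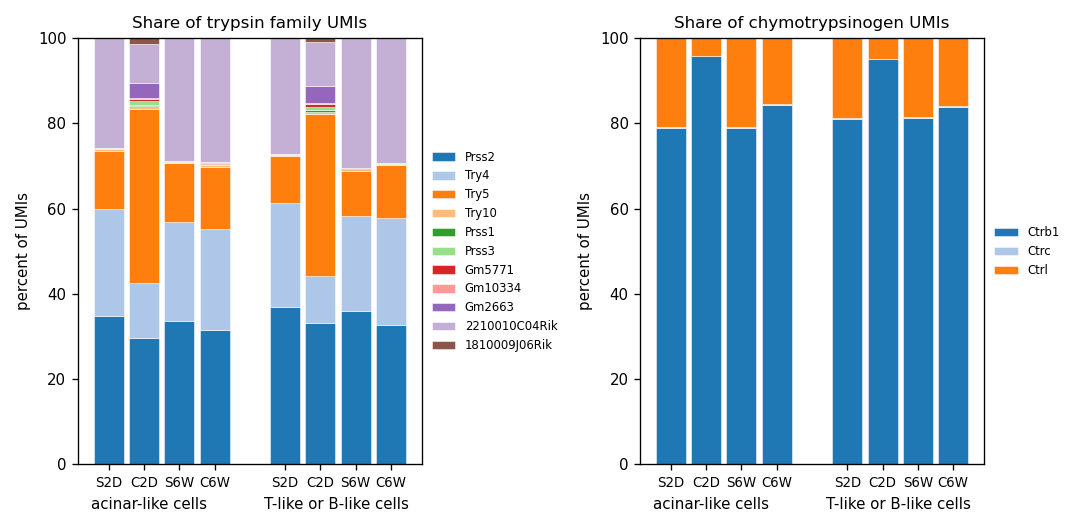
Shares of the UMIs of 11 trypsin family genes (left) and of the 3 chymotrypsinogens (right), in percent, in acinar-like cells and in T-like or B-like cells of each library. In C2D acinar-like cells Try5 took a larger part and Try4 and 2210010C04Rik a smaller one than in the other libraries, Ctrb1 took 95.7% of chymotrypsinogen UMIs, and T-like or B-like cells showed much the same mix.

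Among chymotrypsinogens, Ctrb1, the main chymotrypsinogen B, had about the same UMIs per cell in C2D as in S2D, while Ctrl and Ctrc had fewer. Ctrb1 averaged 1732 UMIs per cell in S2D and 1853 in C2D, then 2260 in S6W and 1681 in C6W, a narrow range in which C2D stood between the saline libraries. Its log2 ratio was -2.19 (-2.20 to -2.19) under TMM but 0.07 under plain CPM. Ctrb1 was the member with the most UMIs in every library.

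Ctrl, chymotrypsin-like protease, stood at 460, 82.5, 599 and 308 UMIs per cell. C2D was lowest by far, and the log2 ratio was -4.77 (-4.78 to -4.76; -2.50 under plain CPM), lower on both scales. Per UMI of Ctrb1 there were 0.265 of Ctrl in S2D and 0.0445 in C2D, against 0.265 in S6W and 0.183 in C6W. By these sums the saline libraries were alike and C2D was 5.96-fold lower than S2D (log2 -2.58, -2.59 to -2.56).

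Ctrc, chymotrypsin C, which degrades trypsinogen and guards against its early activation, was the rarest member, with 3.77, 0.527, 3.97 and 2.38 UMIs per cell. UMIs of it were found in 30.0% of the acinar-like cells of C2D and in 74.1 to 80.4% of those of the other libraries. The T-like or B-like cells of C2D, whose median depth was 5280 UMIs against 8921, had it in 0 of 114 cells, which allows a share of up to 2.63%, and those of S2D in 5.88%. Its log2 ratio was -5.13 (-5.29 to -4.97; -2.86 under plain CPM), and relative to Ctrb1 -2.94 (-3.09 to -2.78). As a whole, trypsinogens stood at -2.54 (-0.27 under plain CPM) and chymotrypsinogens at -2.47 (-0.21), and the summed chymotrypsinogen UMIs per trypsinogen UMI were 1.13 in S2D and 1.19 in C2D (log2 0.07). That sum joins unlike cells, with 1.48 in cluster 33 and 0.594 in cluster 18, and 29.4% of C2D cells lay below the 5th percentile of S2D in their chymotrypsinogen share. With cells of at least 0.1% mitochondrial UMIs only, 276 in S2D and 254 in C2D, this log2 difference was -0.24. The differences within each family, for Try5 to Prss2 and Ctrl to Ctrb1, were larger than this one on either choice of cells.

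**Figure D3:**
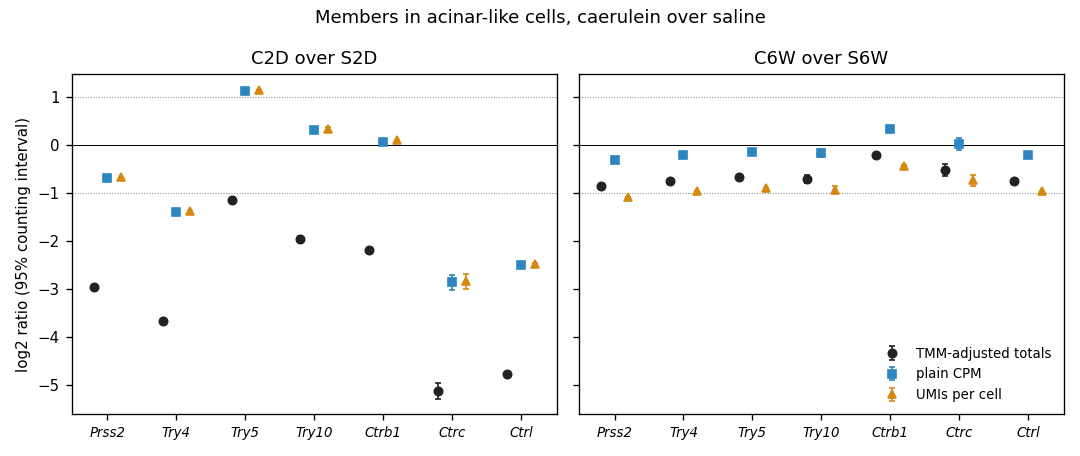
Log2 ratio of caerulein over saline for each member in acinar-like cells at 2 days (left) and 6 weeks (right) under 3 scales, with 95% counting intervals and dotted lines at 2-fold. At 2 days Try4, Ctrl and Ctrc were below the lower line on each scale and Try5 changed sign with the scale; at 6 weeks TMM values ran from -0.86 to -0.21.

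The other trypsin family genes, a list of which 7 were found and measured, ranged from far above to below their saline levels. Under TMM the list median was 2.00, 4 genes were past 2-fold upward (23.2% of all genes) and 1 downward (10.8%). Under plain CPM 6 were higher, where 92.4% of all genes were. Gm2663, a trypsinogen-like gene (chr6:40995830-40999479), had 39 UMIs in all acinar-like cells of S2D and 19 in S6W, 128 in C6W and 54868 in C2D. In C2D it was seen in 93.5% of acinar-like cells (721 of 771) and in 27.2% of T-like or B-like cells, and reached 71.2 UMIs per cell, and the log2 ratio was 7.32 (6.87 to 7.81; 9.58 under plain CPM). Its near-copy 1810009J06Rik had 2, 18909, 3 and 187 UMIs in S2D, C2D, S6W and C6W and stood at 10.07 (8.21 to 13.11), from only 2 UMIs in S2D. Both were near 0 in saline cells and in most cells of C6W.

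Prss1, a trypsinogen gene that shares reads with Prss3, Gm5771 and Gm10334, had 20, 3474, 517 and 211 UMIs in the same order, and was at 4.30 (3.67 to 5.01) at 2 days. Single cells carried much of the small values outside C2D. One acinar-like cell of 114438 UMIs in C6W gave 121 of the 128 UMIs of Gm2663, 175 of the 187 of 1810009J06Rik and 187 of the 211 of Prss1, and 1 cell of S6W gave 489 of 517 for Prss1. In S2D 1 cell gave 35 of the 39 UMIs of Gm2663. The barcodes of these cells occurred in no other library among cells that passed the filters. Without them C6W and S6W held 24 and 28 UMIs of Prss1, and within cluster 7 its log2 ratio at 6 weeks was 0.23 (-0.66 to 1.10) rather than -0.77. Gm5771 stood at 2.00 and Gm10334 at 0.04, and Prss3 at -0.68 (1.58 under plain CPM). 2210010C04Rik, the cationic trypsinogen, was near Try4 in saline cells and lower in C2D as Try4 was, with 674, 178, 1022 and 522 UMIs per cell and a log2 ratio of -4.21 (-4.22 to -4.20; -1.94 under plain CPM). Its part of trypsin family UMIs was 25.7% in S2D and 9.19% in C2D, while that of Gm2663 was 0.00348 and 3.67%.

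Elastases and carboxypeptidases, which trypsin activates, were at least 2-fold lower in 6 of 6 measured genes on both scales (10.8% of all genes under TMM and 0.969% under plain CPM), with a median of -4.13 (-1.87 under plain CPM). Cela1, an elastase, stood at -5.67 (-3.40 under plain CPM), Cela2a, another elastase, at -5.33 (-3.06) and Cpb1, a carboxypeptidase, at -3.91 (-1.64). All 3 lay lower than Prss2, Try4, Try5, Try10 and Ctrb1 on the same scale, and so did the list median. These 3 were named for their large ratios within the list, which favours low values here. The 6 measured genes are also markers by which the acinar-like cells were named. Ctrl and Ctrc lay in the range of Cela1, Cela2a and Cpb1, and Try4 in that of the 6 measured genes, near its upper end.

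A broad list on activation and control held 29 genes, among them inhibitors, cathepsins, lysosomal genes, cholecystokinin receptors and calcium signalling genes. Of these, 16 were measured, with 3 at least 2-fold higher and 3 lower under TMM (median 0.08) and 15 higher and 1 lower under plain CPM. Over all genes these shares were 23.2 and 10.8% under TMM and 92.4 and 0.969% under plain CPM, so 15 of 16 is near the background. Spink1, the trypsin inhibitor of the granule, had 25.5 UMIs per cell in S2D and 60.1 in C2D, against 45.3 in S6W and 41.6 in C6W. C2D was highest per cell, and the log2 ratio was -1.05 (-1.08 to -1.02) under TMM but 1.22 under plain CPM. Against the 4 trypsinogens, which it inhibits once active, Spink1 stood at 0.0131 UMIs per trypsinogen UMI in S2D and 0.0368 in C2D, a 2.80-fold difference (log2 1.49, 1.46 to 1.52). This ratio also differed between the saline libraries, at 0.0179 in S6W. Against all 11 trypsin family genes it was 0.00972 in S2D and 0.0310 in C2D, a 3.19-fold difference.

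Serpini2, a pancreatic serpin, was lower on both scales, at -3.88 (-1.61 under plain CPM). Ctsb, cathepsin B, which can activate trypsinogen, was at 0.02 (-0.18 to 0.22; 2.28 under plain CPM) and Ctsl, cathepsin L, which degrades it, at 0.62 (0.49 to 0.75; 2.88). Cckar, the cholecystokinin receptor through which caerulein acts, was at -0.86 (1.40 under plain CPM). Lgmn, the protease legumain, stood at 2.80, Ctss, cathepsin S, at 1.98 and Serpinb6a, an intracellular serpin, at 1.73, from 6, 10 and 72 UMIs in S2D. Lgmn and Ctss are also genes of macrophages, whose 14 markers all had UMIs in these C2D cells, and the part of RNA from such cells in these values was not tested.

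Acinar transcription factors were measured in 6 of 9 genes, with 2 lower under TMM, beside 10.8% of all genes (Bhlha15 at -2.13 and Rbpjl at -1.41, both above 0 under plain CPM at 0.13 and 0.86). Nr5a2 was at 0.88 (0.04 to 1.85) and Gata4 at 0.58 (-0.27 to 1.56). Bhlha15 promotes secretory maturation, and Rbpjl is the acinar partner in PTF1. Both changed sign with the scale.

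From cell to cell, the shift from Prss2 to Try5 was broad. In the cells with at least 20 UMIs of both genes together, Try5 made up a median of 26.4% of the pair in S2D and 57.7% in C2D, against 25.2% in S6W and 26.5% in C6W, and 79.1% of the C2D cells lay above the 95th percentile of S2D. Ctrl made up a median of 20.9% of Ctrl and Ctrb1 in S2D and 3.44% in C2D, and 95.3% of C2D cells lay below the 5th percentile of S2D. The median was 17.4% in S6W and 12.8% in C6W, so by this measure the saline libraries differed. The Try4 share of Try4 and Prss2 behaved otherwise, with a median of 42.2% in S2D and 25.1% in C2D but quartiles of 2.93 and 46.3% in C2D, against 35.0 and 47.3% in S2D. Some C2D cells thus held Try4 at the saline share and others had almost none.

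**Figure D4:**
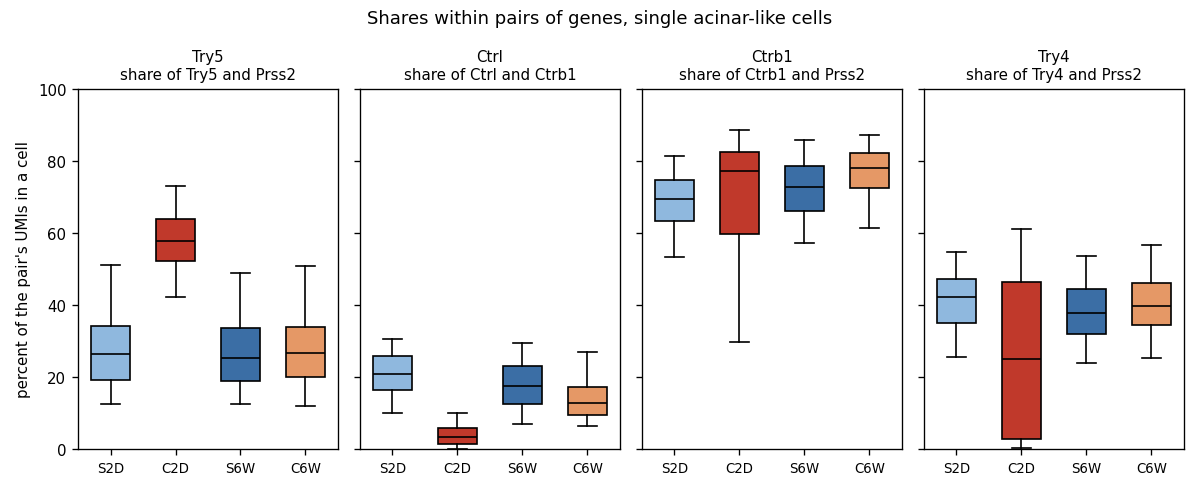
Share of the first gene in the UMIs of a pair, in percent, over single acinar-like cells with at least 20 UMIs of the pair; boxes show the median and quartiles and whiskers the 5th and 95th percentiles. The Try5 share was higher and the Ctrl share lower in C2D than in the other libraries, and the Try4 share of C2D cells spread from near 0 to 61.0%.

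This spread followed the clusters of C2D, which were built on these genes among others, so the values are a description. Cells of cluster 33, led by Reg3b and Gm2663, had 385 UMIs of Try4 per cell, and cells of cluster 18, led by Gm2663, Clu, Try5 and Krt18, had 29.9. Ctrb1 stood at 2491 and 815, Ctrl at 123 and 12 and Ctrc at 0.768 and 0.112, all higher in cluster 33. Try5 (767 and 833) and Prss2 (602 and 525) were close to each other in both. The few cells of cluster 18 outside C2D also held about as much Try5 as Prss2. Their means were 193 and 188 UMIs per cell in S2D (18 cells), 1131 and 1156 in S6W (8) and 365 and 383 in C6W (15). Cluster 7 had 365 of Try5 and 942 of Prss2 in S2D, and 515 and 1159 in its 3 cells of C2D. Prss1 was found mainly in cluster 33, with 7.19 against 0.224 UMIs per cell, while Gm2663 was present in both, at 84.5 per cell in cluster 33.

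Members also paired off across the 771 cells of C2D. On a log2 scale of UMIs per 10000 UMIs of the cell, Pearson's r was 0.90 for Try4 and Ctrl, 0.78 for Ctrb1 and Ctrl and 0.84 for Prss2 and Try5, but 0.04 for Try4 and Try5, which are the closest copies. Try4 and Ctrl were the most alike pair in every library (0.70 in S2D, 0.82 in S6W and 0.74 in C6W). The points share a library and a depth, and the share of other digestive RNA in a cell enters each value. 

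**Figure D5:**
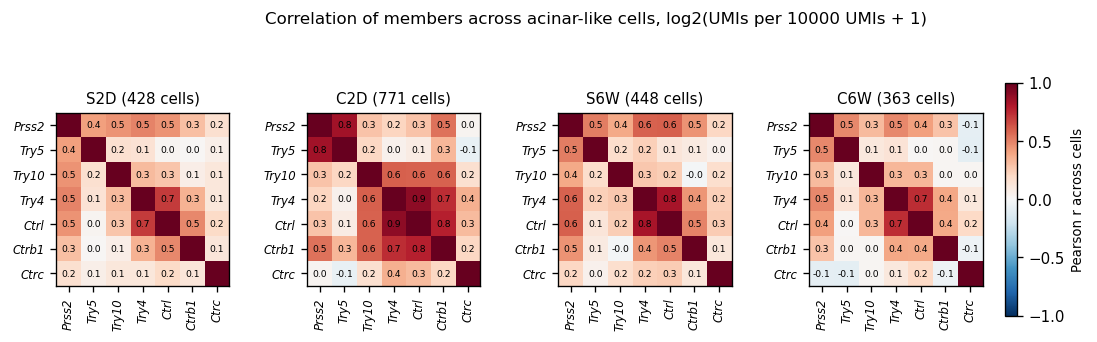
Pearson's r between members across acinar-like cells of each library, on log2(UMIs per 10000 UMIs + 1). Try4 and Ctrl have the highest value in every library, and in C2D Prss2 pairs with Try5, at 0.84, and Try4 with Ctrl, at 0.90.

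After 6 weeks the mix of trypsinogens was near that of saline, while Ctrb1 was higher relative to the trypsinogens and Ctrl lower relative to Ctrb1. No member was 2-fold lower or higher in C6W than in S6W under TMM (0 of 7, beside 1.22% of 1476 genes lower and 2.3% higher), nor under plain CPM (0.271% lower and 6.84% higher). Set against S2D, Try10 alone was 2-fold lower under TMM, at -1.05, beside 1.74% of 1265 genes. With UMIs per cell, Prss2 was at -1.08, beside 5.28% of genes lower. TMM values ran from -0.86 for Prss2 to -0.21 for Ctrb1, with the median of all genes at -0.23, and plain CPM values from -0.32 for Prss2 to 0.34 for Ctrb1. Ctrb1 and Ctrc, at -0.52 under TMM and 0.025 under plain CPM, changed sign with the scale. Trypsinogens as a group stood at -0.78 (-0.24 under plain CPM) and chymotrypsinogens at -0.30 (0.24).

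Ctrb1 was higher relative to Prss2 in C6W, with 2.97 UMIs per Prss2 UMI against 1.89 in S6W, 1.90 in S2D and 3.22 in C2D. The difference from S6W was 1.57-fold (log2 0.65, 0.64 to 0.66), while the saline libraries differed by -0.01. All chymotrypsinogens stood at 1.58 UMIs per trypsinogen UMI in C6W and 1.13 in both saline libraries, a log2 difference of 0.48. Within single cells the median Ctrb1 share of Ctrb1 and Prss2 was 77.9% in C6W, 72.8% in S6W and 69.3% in S2D, so by this measure the saline libraries differed too. Ctrl was lower relative to Ctrb1, at 0.183 against 0.265 (log2 -0.54, -0.55 to -0.52), in the direction of C2D, and 29.7% of C6W cells and 13.9% of S6W cells lay below the 5th percentile of S2D. Try5 relative to Prss2 was at 0.464 in C6W and 0.409 in S6W, far from the 1.38 of C2D. Spink1 per trypsinogen UMI was 0.0330 in C6W, 0.0179 in S6W and 0.0131 in S2D, so C6W was nearer to C2D. Restricting C6W and S6W to cluster 7 left the chymotrypsinogen to trypsinogen difference at 0.49.

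Outside acinar-like cells the members were found at low levels in every class. T-like and B-like cells, which do not make these enzymes, held a mean of 74.9 member UMIs per cell in S2D (935 cells) and 28.2 in C2D (114), against 43.2 in S6W (182) and 37.1 in C6W (373). These were 0.789 to 1.81% of the acinar level of the same library, and C2D was lowest, at a log2 of -1.41 (-1.46 to -1.36) against S2D. The medians were 62, 10, 37 and 31. Every T-like or B-like cell had at least 1 member UMI, and after thinning each cell to 1000 UMIs the share with one was 99.7, 78.1, 98.4 and 93.5%, with 9, 0, 0 and 1 shallower cells left out. Acinar-like cells held 88.1 to 96.3% of all member UMIs of a library.

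The mix in T-like and B-like cells followed the acinar-like cells of their own library. Try5 made up 45.9% of trypsinogen UMIs in those of C2D (43.3 to 48.5%, Clopper-Pearson) and 14.7 to 15.4% by the same interval in those of S2D. Ctrb1 made up 95.2 and 81.1% of chymotrypsinogen UMIs, and no UMI of Ctrc was found in the T-like or B-like cells of C2D. Fibroblast-like cells held 37.2 to 79.3 member UMIs per cell over the 4 libraries and ductal-like cells 57.4 to 86.3, or 1.05 to 2.42% of the acinar level. The highest value outside acinar-like cells was in macrophage-like or monocyte-like cells of S2D, with a mean of 172 and a median of 64.5 over 86 cells. That median was near the 62 of T-like or B-like cells of S2D, but the mean was above their 74.9. In C2D the ductal-like mean of 86.3 was also above the 28.2 of T-like or B-like cells, with medians of 22 and 10. How much of these levels is free RNA was not tested.

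Genes with patterns most like the summed members were other secretory acinar genes. Over 31 sums of a class in a library, 4 of them acinar-like, Pearson's r of log2(CPM + 1) was 0.99 for Cpa1, 0.99 for Pnliprp1, 0.99 for Klk1, 0.98 for Pnliprp2 and 0.98 for Cuzd1, values which the gap between acinar-like and other cells sets. Across the 771 cells of C2D the order was Cpa1 (0.77), 2210010C04Rik (0.72), Spink1 (0.71), Pnliprp1 (0.69) and Cela2a (0.69). Cpa1, a carboxypeptidase, led by both measures. Cpa1, Pnliprp1, Cuzd1 and Cela2a are among the markers by which the acinar-like cells were named.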

How the data were processed

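Single-cell RNA of sorted mouse pancreas was measured in 4 libraries, 1 for each of the groups S2D, C2D, S6W and C6W. The deposited matrices hold whole-number UMI counts per gene and barcode that the authors made with Cell Ranger 3.0.2 on mm10, per the submitters' processing notes, which also name FastQC. The libraries sum to 29145886 to 71547194 UMIs. Nothing in the sources used here says how reads shared by near-identical genes were treated.

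Cells needed 500 UMIs and 200 genes or more and no more than 20% mitochondrial UMIs, and 42, 72, 15 and 35 doublets called by Scrublet in S2D, C2D, S6W and C6W were left out. Cells were clustered in scanpy 1.11.5 (2000 variable genes, 40 principal components, 15 neighbours, Leiden resolution 1), and clusters were named from marker genes that include no member. To be named, a cluster had to reach 1 in mean log2 fold over its markers, with 3 or more of them raised and each seen in 10% of cells or more, and to lead the next class by 0.5. Raw counts were summed per library and class and scaled by TMM (edgeR 4.0.16, R 4.3.3). DESeq2 1.42.0 size factors, plain CPM, UMIs per cell, totals without digestive genes, free RNA subtraction, at least 1000 UMIs per cell, doublets kept and clusters built without digestive genes were alternatives. Intervals were computed with scipy 1.17.1 in Python 3.11.15. Only genes whose UMIs in both libraries together reached 100 entered a comparison, and a 2-fold difference was counted as called. With 1 library a group no p-value was computed. The computation was tested on simulated data.

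All members are named, and of each gene list the up to 4 genes with the largest absolute log2 ratio at 2 days, plus Spink1, Ctsb, Ctsl and Cckar. One gene that this rule names is not reported here. The members and lists were chosen with earlier results of these data known. Coding sequences and coordinates come from GENCODE vM21 and promoters from RefSeq (GRCm38.p6).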

Additional observations from a re-analysis of the deposited data

Results flagged for a closer look

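The values below had opposite signs at 2 days and at 6 weeks, as log2 ratios of caerulein over saline in acinar-like cells. With 1 library a group the difference between the times was not tested.

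Prss1 stood at 4.30 (3.67 to 5.01) at 2 days and -0.77 (-1.01 to -0.53) at 6 weeks under TMM, and at 6.57 and -0.23 under plain CPM. At 6 weeks 1 cell gave 489 of its 517 UMIs in S6W and 1 cell 187 of its 211 in C6W. Within cluster 7, which holds neither cell, the sign at 6 weeks turned to 0.23 (-0.66 to 1.10). Rbpjl stood at -1.41 (-1.59 to -1.23) and 0.40 (0.18 to 0.62) under TMM, but at 0.86 and 0.94 under plain CPM. Spink1 stood at -1.05 (-1.08 to -1.02) and 0.10 (0.07 to 0.13), but at 1.22 and 0.64 under plain CPM. For Rbpjl and Spink1 the opposite signs therefore held under TMM and not under plain CPM. At 6 weeks Rbpjl was at -0.13 (-0.40 to 0.14) within cluster 7, and Spink1 at -0.12 as UMIs per cell and -0.083 with doublets kept. Ctsl stood at 0.62 (0.49 to 0.75) and -0.62 (-0.81 to -0.44), and at 2.88 and -0.08 under plain CPM.

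For ratios between 2 genes, which need no scaling, Try4 to Prss2 stood at -0.72 (-0.73 to -0.71) at 2 days and 0.12 (0.10 to 0.13) at 6 weeks. With cells of at least 0.1% mitochondrial UMIs only, the 2-day value was -1.34. 2210010C04Rik to Prss2 stood at -1.25 (-1.27 to -1.24) and 0.11 (0.10 to 0.12). Both ratios were thus lower in C2D than in S2D and slightly higher in C6W than in S6W.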

How the results depend on the processing

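The values are log2 ratios, with the reported value in brackets. Counting intervals are narrow, so most alternatives moved a value beyond them, and the size of a departure is the point to read. Trypsinogens at 2 days (-2.54) stood at -0.27 under plain CPM, -1.88 with totals without digestive genes, -2.70 with DESeq2 size factors, -0.25 as UMIs per cell, -2.52 with free RNA subtracted, -2.56 in cells with at least 1000 UMIs, -2.06 with doublets kept, -2.55 with clusters built without digestive genes, -2.81 in cells with at least 0.1% mitochondrial UMIs. Chymotrypsinogens at 2 days (-2.47) stood at -0.21 under plain CPM, -1.82 with totals without digestive genes, -2.63 with DESeq2 size factors, -0.18 as UMIs per cell, -2.46 with free RNA subtracted, -2.49 in cells with at least 1000 UMIs, -2.00 with doublets kept, -2.48 with clusters built without digestive genes, -3.05 in cells with at least 0.1% mitochondrial UMIs. The chymotrypsinogen to trypsinogen difference at 2 days (0.07) stood at 0.059 with free RNA subtracted, -0.24 in cells with at least 0.1% mitochondrial UMIs. Trypsinogens at 6 weeks (-0.78) stood at -0.24 under plain CPM, -0.53 with totals without digestive genes, -0.81 with DESeq2 size factors, -1.0 as UMIs per cell, -0.79 with free RNA subtracted, -0.80 in cells with at least 1000 UMIs, -0.97 with doublets kept, -0.66 in cells with at least 0.1% mitochondrial UMIs, -0.74 in cluster 7 only, -0.72 against S2D. Chymotrypsinogens at 6 weeks (-0.30) stood at 0.24 under plain CPM, -0.055 with totals without digestive genes, -0.33 with DESeq2 size factors, -0.52 as UMIs per cell, -0.32 in cells with at least 1000 UMIs, -0.49 with doublets kept, -0.28 in cells with at least 0.1% mitochondrial UMIs, -0.25 in cluster 7 only, -0.24 against S2D. The chymotrypsinogen to trypsinogen difference at 6 weeks (0.48) stood at 0.38 in cells with at least 0.1% mitochondrial UMIs, 0.49 in cluster 7 only. Member UMIs per T-like or B-like cell at 2 days (-1.41) stood at -1.31 with doublets kept, -1.15 per 10000 UMIs, -1.24 in T-like cells only, -2.63 by medians. Of the 7 members, 7 were at least 2-fold lower at 2 days in the reported values (10.8% of all genes). There were 6 with totals without digestive genes and with doublets kept (without Try5), choices for which no share of all genes was computed. Under plain CPM and as UMIs per cell there were 3 (0.969% on each). At 6 weeks there were 0 (1.22%), but Prss2 as UMIs per cell (5.28%) and Try10 against S2D (1.74%). With doublets kept Prss2 was also 2-fold lower, without such a share. The cells with doublets kept include a cluster with a median of 14.6% mitochondrial UMIs that was named acinar-like. It held 69 cells of S2D, 1 of C2D, 7 of S6W and 32 of C6W. Signs of single genes at 2 days changed under plain CPM and as UMIs per cell, at 1.12 and 1.15 for Try5, at 0.31 and 0.34 for Try10, at 0.073 and 0.097 for Ctrb1, at 0.13 and 0.16 for Bhlha15, at 0.86 and 0.88 for Rbpjl, at 1.22 and 1.24 for Spink1, at 1.40 and 1.43 for Cckar (-0.86) and at 1.58 and 1.61 for Prss3 (-0.68). At 6 weeks plain CPM changed the sign of Ctrb1 (0.34), Ctrc (0.025), Ctsb (0.16) and Cckar (0.49), and cells of cluster 7 only that of Prss1 (0.23) and Rbpjl (-0.13). Gm2663 at 6 weeks was at -0.58 in cells with at least 0.1% mitochondrial UMIs, which leaves out the cell that gave 121 of its 128 UMIs. The within-family ratios Try5 to Prss2 and Ctrl to Ctrb1 kept their direction under every alternative run at 2 days. Genes at least 2-fold lower and higher numbered 558 and 1196 of 5162 at 2 days under TMM and 50 and 4772 under plain CPM, and 18 and 34 of 1476 against 4 and 101 at 6 weeks. Over all results of named genes, ratios of 2 genes and shares, 276 of 601 alternative values lay inside the counting interval of the reported one and 325 outside it, and 39 of the 601 had the opposite sign. With cells of at least 0.1% mitochondrial UMIs the Try4 to Prss2 difference at 2 days was -1.34 (-0.72). The mitochondrial filter and the restriction to cluster 7 were chosen after seeing the data. No replicate could be left out. No paired analysis was possible because the replicate number 1 marks the only library of each group. With 1 library a group, depth limits Ctrc (406 UMIs in C2D) and the low saline counts of Gm2663 and 1810009J06Rik, and no value shows how far animals differ.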
